A study of Homo sapiens with 10 samples.

Results

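Edits left by Ribo-STAMP were compared between the 2 most covered transcripts of 10 genes whose isoforms carried unequal editing in MDA-MB-231 cells: PLAUR, LRR1, GRK6, AMZ2, PIGS, ADRM1, RHBDD2, RAB34, HDLBP and C7orf50. The genes were selected on edited reads per covering read of their transcripts in these same 4 MDA-MB-231 libraries, so that difference is described here and not tested. The 4 files held 9753 genes with 16074 transcripts. Of the 30 transcripts listed for the 10 genes, 20 were used, the most covered of each gene (A) and the next (B), and all 20 reached a coverage of at least 10 reads in every MDA-MB-231 library. Across all genes, 701 such pairs and 6018 transcripts met the same minimum and entered the tests. The isoform difference is always given as A minus B.

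Ribo-STAMP fuses the cytidine deaminase APOBEC1 to the ribosomal protein RPS2, so that messenger RNA held by ribosomes gathers C-to-U edits, and long reads assign each edit to a full-length isoform. Isoforms of a gene can differ in the protein they encode, or only in untranslated regions that bear on how often a ribosome starts. PLAUR is a textbook case of the first kind: the urokinase receptor is held at the cell surface by a glycosylphosphatidylinositol (GPI) anchor, whose attachment signal lies at the carboxyl terminus of the protein.

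The MDA-MB-231 cells, a triple-negative breast cancer line, carried a Ribo-STAMP vector induced with doxycycline at 1 ug/mL for 48 h. One group was also treated with CoCl2 at 100 uM for 48 h (CoCl2, n = 2), a cobalt salt used as a chemical mimic of low oxygen, and the other was not treated (NT, n = 2). HEK293T cells, a transformed embryonic kidney line, carried the same kind of vector for Ribo-STAMP (n = 3) or for APOBEC1 with no ribosomal partner (APOBEC1-only, n = 3), both induced with doxycycline at 1 ug/mL for 72 h. All groups therefore received doxycycline and expressed a deaminase from a vector. The labels used here do not say whether each line is 1 clone or whether replicates are independent cultures. The spread among libraries that every p-value below rests on may therefore be technical.

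The 2 CoCl2 libraries held 125825 and 116253 edited coding positions, against 134694 and 123376 in the 2 NT libraries, and the median coverage of an entry was 147 and 137 reads, against 150 and 143. All 9 markers examined for MDA-MB-231, a mesenchymal line (VIM and CD44 among them), were listed in all 4 libraries, with summed coverage of 6264 to 6698 reads in CoCl2 and 6911 to 7096 in NT cells. Of the 6 HEK293T markers only CKB was listed in all 4 (list sum 347 to 452 reads in CoCl2 and 232 to 317 in NT cells), and NEFM, NEFL and LIN28B were in none. Of the 6 luminal epithelial markers EPCAM and KRT19 were listed in all 4 (list sum 702 to 795 reads in CoCl2 and 395 to 544 in NT cells), and CDH1, ERBB3 and ESR1 in none. The part of either list in the results was not tested. A file lists a position only where at least 1 read was edited, so an unedited transcript cannot be seen. No position was listed in all 4 libraries, and of the positions of the 20 transcripts 636 were in 1 library, 254 in 2 and 111 in 3.

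In 7 genes the 2 transcripts encoded different proteins, and the stretches of coding sequence that belong to only 1 of them are shown because they are where the isoforms part. They were read from the GENCODE 29 transcripts (GRCh38), 5′ to 3′ on the strand of the gene. Capitals mark each C that was listed as edited on that transcript in at least 1 MDA-MB-231 library. PLAUR-203 and PLAUR-202 share 754 coding bases and end in different last coding exons.
PLAUR-203, chr19:43648893-43649143, minus strand, 251 bases: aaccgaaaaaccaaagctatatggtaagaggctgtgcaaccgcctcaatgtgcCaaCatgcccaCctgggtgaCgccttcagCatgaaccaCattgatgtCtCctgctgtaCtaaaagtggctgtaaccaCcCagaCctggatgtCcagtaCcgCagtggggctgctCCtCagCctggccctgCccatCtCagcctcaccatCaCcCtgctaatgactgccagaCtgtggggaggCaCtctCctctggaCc
PLAUR-202, chr19:43646460-43646548, minus strand, 89 bases: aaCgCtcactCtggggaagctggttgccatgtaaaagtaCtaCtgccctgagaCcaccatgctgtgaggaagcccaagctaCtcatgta
GRK6-201 and GRK6-206 share 1404 coding bases. GRK6-206 then runs on for 21 coding bases past an exon end, where GRK6-201 has 3 further coding exons, the first of which is shown.
GRK6-201, chr5:177440700-177440837, plus strand, 138 bases: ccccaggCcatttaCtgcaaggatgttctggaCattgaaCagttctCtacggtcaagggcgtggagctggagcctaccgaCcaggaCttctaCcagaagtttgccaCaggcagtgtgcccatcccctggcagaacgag
GRK6-206, chr5:177436531-177436551, plus strand, 21 bases: gtgagtgcagcccactcctgc
PIGS-202 and PIGS-203 start coding at different places and share the other 1631 coding bases. The 5′ untranslated region of PIGS-203 (338 bases) runs unbroken over the 34 bases shown for PIGS-202, which do not code in PIGS-203.
PIGS-202, chr17:28571463-28571496, minus strand, 34 bases: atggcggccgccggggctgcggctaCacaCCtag
PIGS-203, chr17:28571189-28571198, minus strand, 10 bases: atgccctCag
ADRM1-205 lacks a coding exon that ADRM1-204 has, and is otherwise the same in its 1104 coding bases.
ADRM1-204, chr20:62304461-62304577, plus strand, 117 bases: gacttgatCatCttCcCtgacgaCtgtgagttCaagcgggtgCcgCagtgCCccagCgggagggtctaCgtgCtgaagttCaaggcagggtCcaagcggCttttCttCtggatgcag
RHBDD2-202 is annotated with a downstream start and a 5′ untranslated region of 629 bases, against 135 in RHBDD2-201. The first 423 coding bases of RHBDD2-201 do not code in RHBDD2-202, and the first exon of them is shown.
RHBDD2-201, chr7:75879083-75879260, plus strand, 178 bases: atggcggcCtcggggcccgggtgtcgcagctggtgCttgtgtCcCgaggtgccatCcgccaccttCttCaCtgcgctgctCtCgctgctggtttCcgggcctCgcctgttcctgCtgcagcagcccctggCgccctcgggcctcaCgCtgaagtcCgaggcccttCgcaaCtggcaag
C7orf50-204 and C7orf50-201 open with different first coding exons and share 453 coding bases. The annotation marks the 5′ end of C7orf50-204 as incomplete.
C7orf50-204, chr7:1028258-1028339, minus strand, 82 bases: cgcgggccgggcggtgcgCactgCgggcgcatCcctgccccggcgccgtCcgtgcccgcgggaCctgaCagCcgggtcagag
C7orf50-201, chr7:1127257-1127385, minus strand, 129 bases: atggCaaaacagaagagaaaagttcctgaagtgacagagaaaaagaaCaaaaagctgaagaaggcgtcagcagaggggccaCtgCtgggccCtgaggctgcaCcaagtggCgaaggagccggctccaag

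The seventh such gene, LRR1, was the most unequal in length: LRR1-202 skips a coding exon of 722 bases, its 438 coding bases all lie in the coding sequence of LRR1-201 (1242 bases), and 64.4% of them are read in the same frame. AMZ2, RAB34 and HDLBP form a second class, in which both transcripts have the same coding sequence (1080, 777 and 3804 bases) and differ only in their untranslated regions. The 5′ untranslated region was 1132 bases in AMZ2-202 and 110 in AMZ2-203, 624 in RAB34-204 and 453 in RAB34-201, and 293 in HDLBP-204 and 375 in HDLBP-201.

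Editing was expressed as edited reads, summed over the listed coding positions of a transcript, per 100 covering reads, with the median coverage of the listed positions as the number of covering reads. It is a level per transcript, and it can approach or pass 100 because 1 read can be edited at several positions. B was edited more than A in 8 genes and A more than B in 2, PIGS and RHBDD2. All 10 genes kept 1 direction in all 4 libraries, and over all 701 pairs 26.5% did. A difference of at least 2-fold in all 4 libraries was seen in PLAUR and RHBDD2, 2 of the 10, against 2.28% of all pairs (16 of 701, with A higher in 1.14% and B higher in 1.14%). These shares describe the choice of the genes and support nothing beyond it, and the 16 pairs became 28 without CoCl2 replicate 1, 25 without NT replicate 1 and 32 without NT replicate 2, with 3 libraries to pass in place of 4. The median absolute difference was 1.29 on the log2 scale over the 10 genes and 0.33 over all pairs.

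**Figure D1:**
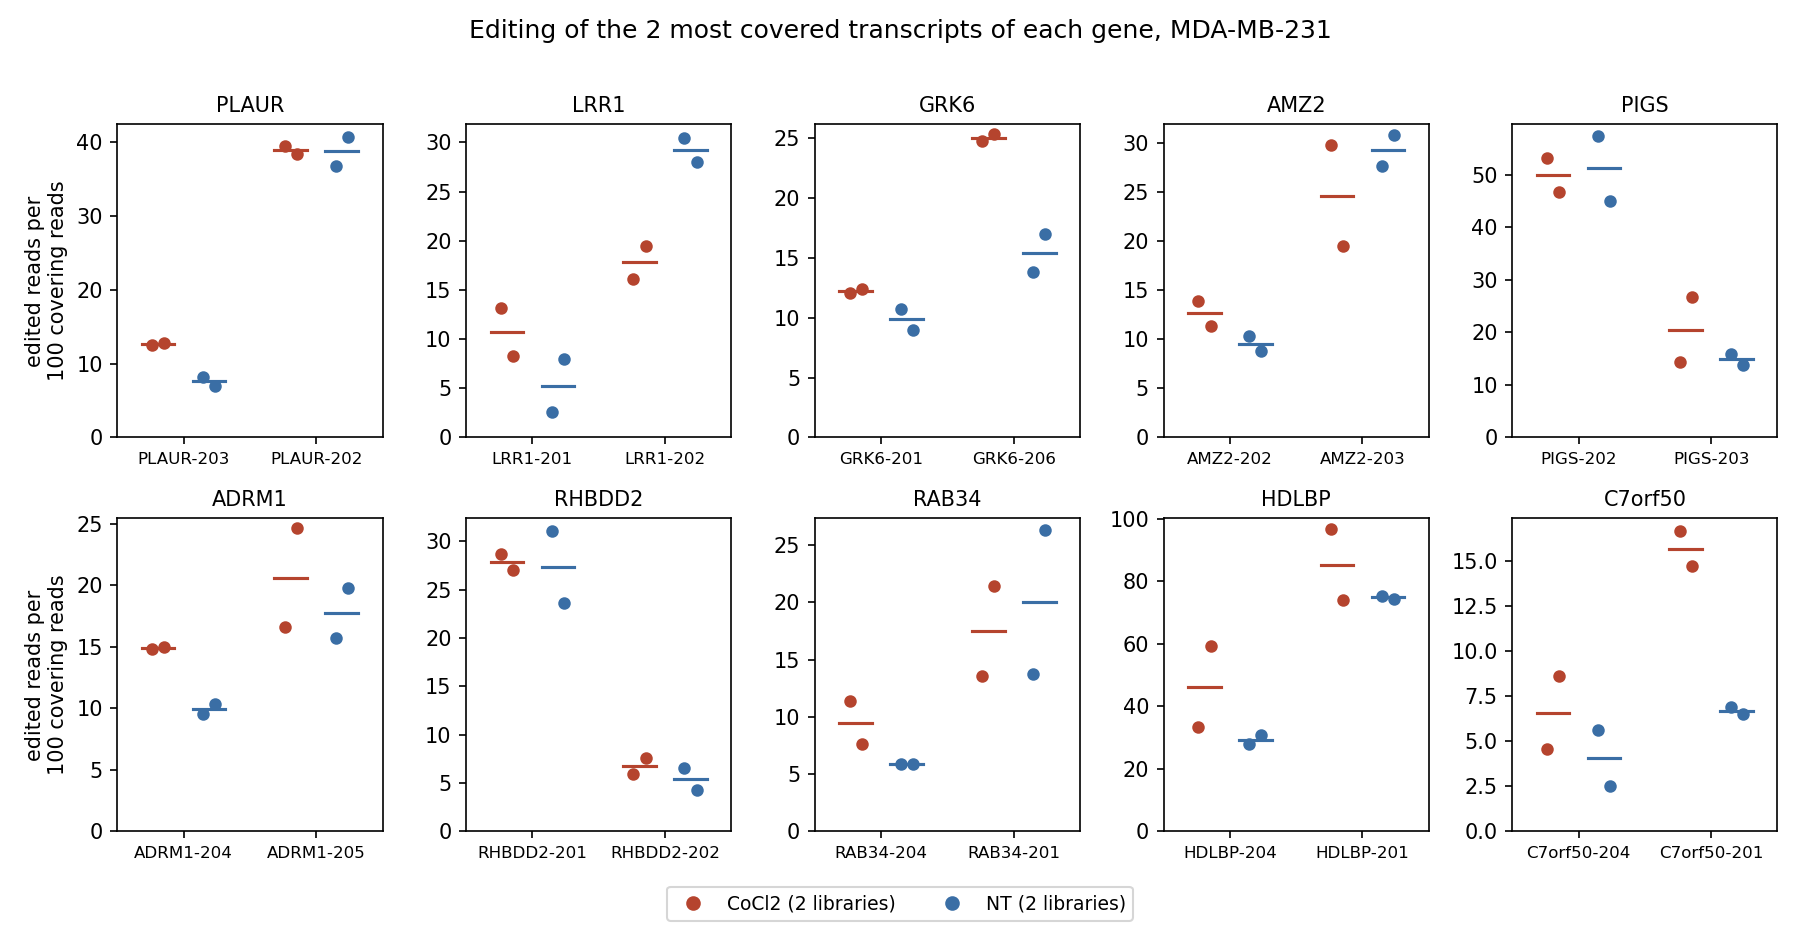
Editing in edited reads per 100 covering reads (vertical axes, each from 0 with its own range) for the A transcript (left) and the B transcript (right) of each gene. Points are libraries, CoCl2 left of NT, and the lines are means of 2. PLAUR-202 stayed between 36.8 and 40.7 in all 4 libraries, above every PLAUR-203 value.

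PLAUR, the urokinase receptor, had the most unequal coverage and the second largest difference of the 10. PLAUR-203, the form with the annotated principal protein, had 12.5 and 12.8 edited reads per 100 in CoCl2 and 8.21 and 6.98 in NT cells. PLAUR-202, which ends in the short alternative exon, had 39.5 and 38.5 in CoCl2 and 36.8 and 40.7 in NT cells. The 2 transcripts never overlapped. PLAUR-202 was edited 4.09-fold more (A minus B -2.03 ± 0.46 on the log2 scale, SD over 4 libraries), with 3.23-fold and 3.07-fold in the CoCl2 libraries and 4.70-fold and 5.99-fold in the NT libraries. PLAUR-203 was covered by 480 and 483 reads in CoCl2 and 280 and 401 in NT, and PLAUR-202 by 43 and 39 in CoCl2 and 19 and 27 in NT, so the level of PLAUR-202 rests on 7 to 17 edited reads a library. The isoform difference was no smaller outside the last exons, since over the 754 shared coding bases PLAUR-202 was edited 4.75-fold more.

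The last exons themselves held many of the PLAUR edits. In PLAUR-203 the 251 bases of its own last exon are 25.0% of the coding sequence and held 37.6% of the edited reads (65 of 173), or 0.783 edited reads per C, against 0.484 in the shared bases. In PLAUR-202 the 89 bases of its own exon are 10.6% of the coding sequence and held 28.0% of the edited reads (14 of 50), or 0.583 per C, against 0.161. The most edited C of PLAUR-203 was coding base 866, at position 43649032 of chromosome 19, with 7 edits in 481 reads and 3 in 483 in CoCl2, and 1 in 402 in NT replicate 2, while NT replicate 1 did not list it. In PLAUR-202 it was coding base 794, at position 43646509, with 3 edits in 43 reads in CoCl2 replicate 1 and 1 in 27 in NT replicate 2. Both of these C's follow an A, as do 45.7% of the edited C's of PLAUR-203 and 62.2% of those of PLAUR-202, against 21.9% and 22.3% of all their coding C's.

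**Figure D2:**
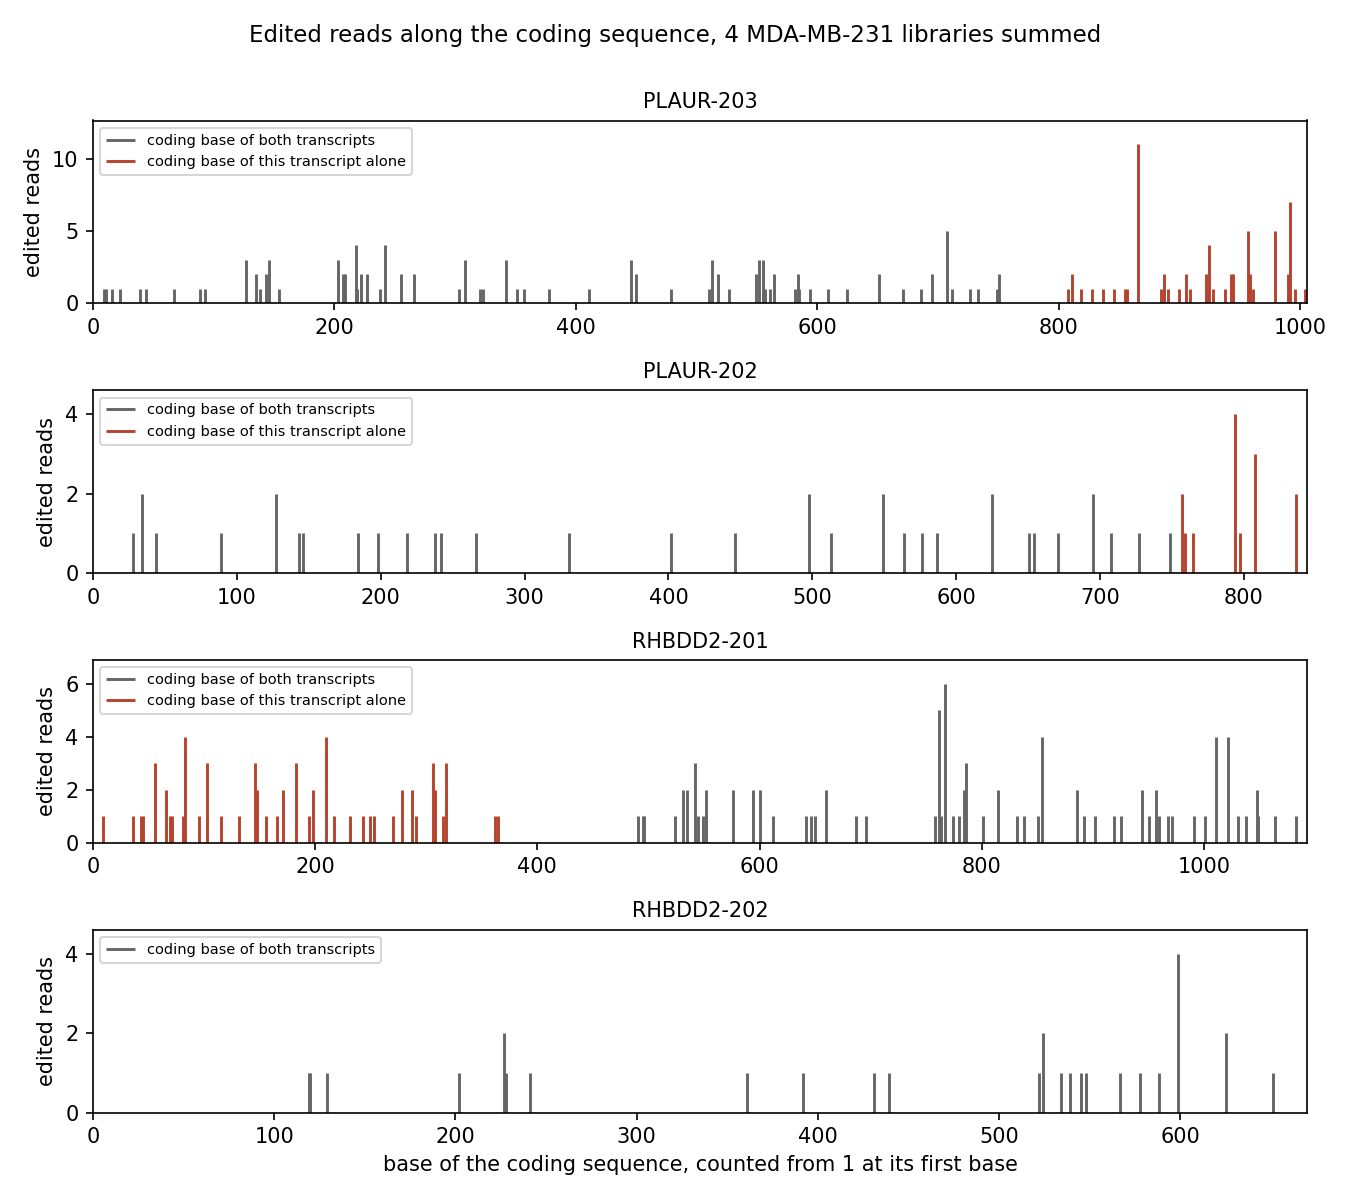
Edited reads summed over the 4 MDA-MB-231 libraries (vertical axes, each from 0) by base of the coding sequence (horizontal axes, bases from the first coding base) for the 2 PLAUR and the 2 RHBDD2 transcripts. Red lines are bases coding in that transcript only. The tallest line of PLAUR-203, with 11 edited reads, is at base 866 in its own last exon.

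RHBDD2, a member of the rhomboid-like family of membrane proteins, had the largest difference of the 10, with the longer protein ahead. RHBDD2-201 had 28.7 and 27.1 edited reads per 100 in CoCl2 and 31.0 and 23.6 in NT cells. RHBDD2-202 had 5.96 and 7.58 in CoCl2 and 6.59 and 4.30 in NT cells. The ranges lie far apart in each library, and A was 4.32-fold higher (A minus B 2.11 ± 0.23, SD over 4 libraries). Coverage was nearly even, 157 and 170 reads against 151 and 132 in the CoCl2 libraries and 116 and 110 against 91 and 93 in the NT libraries. Within the shared 669 coding bases RHBDD2-201 was still edited 2.48-fold more, less than over the whole coding sequence. Per coding C it was edited 2.74-fold more, and on that measure LRR1 (8.11-fold), PLAUR (5.07-fold) and PIGS (2.80-fold) differed more. The bases that code in RHBDD2-201 alone held 41.2% of the edited reads of that transcript and are 38.7% of its coding sequence.

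PIGS, a subunit of the GPI transamidase that attaches GPI anchors to proteins such as the urokinase receptor, was the other gene with A ahead. PIGS-202 had 53.3 and 46.8 edited reads per 100 in CoCl2 and 57.4 and 45.0 in NT cells. PIGS-203 had 14.3 and 26.7 in CoCl2 and 15.9 and 13.8 in NT cells. Every PIGS-202 value was above every PIGS-203 value, and A was 2.85-fold higher (1.51 ± 0.50). The first coding bases that set the 2 apart held 5 of 273 and 1 of 42 edited reads, and on the shared bases the difference was 2.85-fold as well. At coding base 1011 of PIGS-202, position 28556896 of chromosome 17, 8 edited reads were listed over 3 libraries and none on PIGS-203, which codes the same base.

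LRR1, a substrate receptor of cullin-2 ubiquitin ligases, had few edited reads and the widest spread. LRR1-201 had 13.2 and 8.25 edited reads per 100 in CoCl2 and 2.55 and 7.96 in NT cells, from 12, 8, 2 and 9 edited reads. LRR1-202 had 16.1 and 19.5 in CoCl2 and 30.4 and 28.0 in NT cells, from 9, 8, 7 and 7. B was higher in every library, by 3.21-fold on average, and the difference ranged over the libraries (1.24-fold and 2.37-fold in CoCl2, 10.2-fold and 3.57-fold in NT). On the shared bases it was 7.19-fold.

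GRK6 encodes a kinase that phosphorylates activated G protein-coupled receptors. GRK6-201 had 12.1 and 12.4 edited reads per 100 in CoCl2 and 10.7 and 9.01 in NT cells, and GRK6-206 had 24.7 and 25.4 in CoCl2 and 13.9 and 17.0 in NT cells. GRK6-206 was 1.84-fold higher (A minus B -0.88 ± 0.29), and on shared bases 2.70-fold. None of its 57 edited reads lay in its own 21 coding bases.

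ADRM1, a ubiquitin receptor of the proteasome, was the best covered of the genes and had the smallest difference. ADRM1-204 had 14.9 and 15.0 edited reads per 100 in CoCl2 and 9.54 and 10.3 in NT cells, from 33 to 109 edited reads a library. ADRM1-205 had 16.6 and 24.7 in CoCl2 and 15.7 and 19.8 in NT cells. The 2 transcripts lay close together in CoCl2 replicate 1, and B was 1.57-fold higher on average. The exon that ADRM1-205 lacks held 45 edited reads on 30 C's, or 1.5 per C, against 0.680 per C in the rest of ADRM1-204.

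C7orf50-204 had 4.57 and 8.60 edited reads per 100 in CoCl2 and 5.63 and 2.54 in NT cells, and C7orf50-201 had 16.7 and 14.7 in CoCl2 and 6.90 and 6.52 in NT cells. B was 2.02-fold higher on average and only 1.18-fold in NT replicate 1. A single base of C7orf50-201 stood out. At its coding base 159, position 1010114 of chromosome 7, 8 of 192 and 5 of 163 reads were edited in CoCl2 and 1 of 92 in NT replicate 2, 14 of the 68 edited reads of the transcript. No edit was listed there on C7orf50-204, which codes the same base. The base stands in the middle of the following window.
C7orf50-201, coding base 159 in capitals: ccgggctggaCgcagagccag

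The 3 genes with identical coding sequences differed in the same sense, B above A, by 2.17-fold to 2.46-fold. AMZ2 encodes a metallopeptidase of the archaelysin family. AMZ2-202 had 13.8 and 11.4 edited reads per 100 in CoCl2 and 10.3 and 8.77 in NT cells, and AMZ2-203, with the shorter 5′ untranslated region, had 29.8 and 19.4 in CoCl2 and 27.7 and 30.8 in NT cells. The transcripts of AMZ2 did not overlap, and B was 2.44-fold higher. RAB34 encodes a small GTPase of intracellular membranes and cilia. RAB34-204 had 11.4 and 7.63 in CoCl2 and 5.88 and 5.88 in NT cells, and RAB34-201 had 13.6 and 21.4 in CoCl2 and 13.7 and 26.3 in NT cells. B was 2.46-fold higher, with the gap only 1.22-fold in CoCl2 replicate 1.

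HDLBP encodes vigilin, an RNA-binding protein with many KH domains, and both its transcripts have 956 coding C's. The level is a sum over the coding sequence, and HDLBP-201 had the highest of the 20 transcripts. Per 100 coding C's HDLBP-201 had 10.1 and 7.75 in CoCl2 and 7.89 and 7.79 in NT cells. On that measure PLAUR-202 was higher (16.0 and 15.6 in CoCl2, 14.9 and 16.5 in NT cells), as was LRR1-202 (14.7 and 17.9, 27.9 and 25.7). HDLBP-204 had 33.3 and 59.3 edited reads per 100 in CoCl2 and 27.9 and 30.8 in NT cells, and HDLBP-201 had 96.7 and 74.1 in CoCl2 and 75.4 and 74.5 in NT cells. The median coverage of the 2 was the same in both CoCl2 libraries, 30 and 27 reads. A further transcript with the same coding sequence, HDLBP-203, had a median coverage of 24 reads over the 4 libraries, against 47 for HDLBP-201, and so fell outside the choice of 2. Its level was 95.2 and 96.0 in CoCl2 and 91.7 and 87.0 in NT cells, above HDLBP-204 in all 4 libraries. The next transcripts in order of coverage of PLAUR, RAB34, AMZ2 and GRK6 had median coverages of 4 to 10.5 reads and 1 to 3 edited reads in all, and the remaining 5 genes had only 2 transcripts.

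Over all 701 pairs the unequal coverage of A and B went with no steady shift of editing. The median A minus B was 0.03 where A was covered less than 2-fold more, -0.03 from 2-fold to 4-fold, 0.12 from 4-fold to 8-fold and -0.12 beyond 8-fold, the bin that holds PLAUR. The share of pairs past 2-fold in all 4 libraries was 1.65, 1.82, 2.36 and 4.50% in the same order. Pairs with the same coding sequence (220) had a median absolute difference of 0.33 and those with different ones (451) of 0.34, and 2 and 13 of them were past 2-fold in all 4 libraries. The other 30 pairs were left out here, because their transcripts were not both in GENCODE 29. All 10 differences had the same sign in all 4 libraries when edited positions were counted in place of edited reads, and when levels were also divided by the number of coding C's. Over positions listed in at most 2 libraries LRR1 and GRK6 had it in 3 of 4 libraries and the other 8 genes in all 4.

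**Figure D3:**
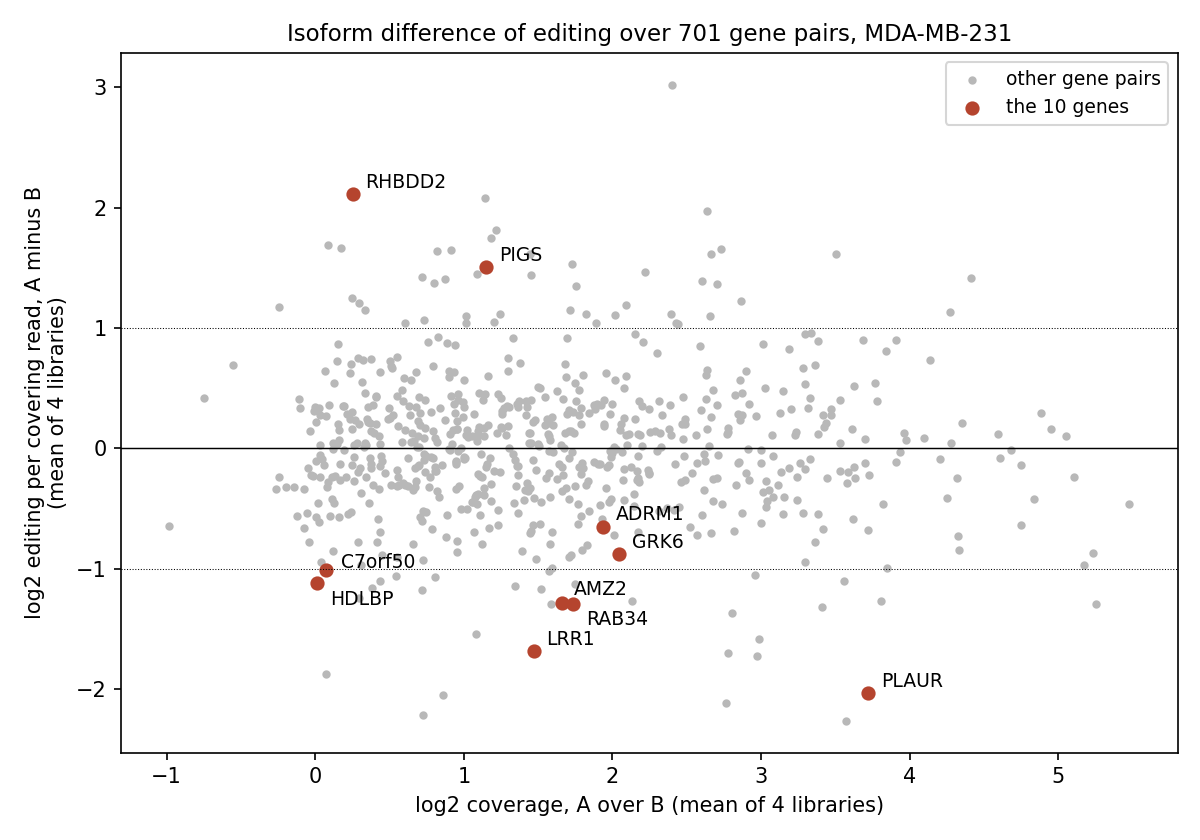
Isoform difference of editing (vertical axis, log2, A minus B) against the coverage of A over B (horizontal axis, log2) for 701 gene pairs, each the mean of 4 MDA-MB-231 libraries. Grey points are other genes, red points the 10 genes, and dotted lines mark 2-fold. RHBDD2 (2.11) and PLAUR (-2.03) lie beyond the dotted lines on opposite sides.

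The transcripts of a pair shared some of their edited positions. In PLAUR 20 positions were listed on both, which is 21.3% of those of PLAUR-203 and 54.1% of those of PLAUR-202. Over the 10 genes the shared positions were 14.0 to 42.9% of those of A and 17.0 to 61.1% of those of B. Of the edited C's of the A transcripts 39.5% followed an A and 33.2% a T, and of those of the B transcripts 49.3% and 30.4%. All coding C's of the same transcripts followed an A in 19.4% of cases for both A and B, and over the tested transcripts 45.1% of edited C's and 20.9% of coding C's did. The edited reads were spread, with 35.9, 32.5 and 31.6% in the first, middle and last of 3 equal parts of the coding sequence of the A transcripts and 34.5, 30.0 and 35.5% of the B transcripts. RHBDD2-202, LRR1-202 and PLAUR-202 leaned to the last part, with 58.6, 61.3 and 54.0%.

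Among other genes with both transcripts covered by at least 50 reads in every library (164 pairs, 44 of them in 1 direction in all 4 libraries apart from the genes listed), P4HB, EIF3E, SHISA5, PCNP and HNRNPA1 had the most alike pattern, ranked by the smallest difference of the 4 libraries. In P4HB, a protein disulfide isomerase, P4HB-201 had 5.71 and 4.59 edited reads per 100 in CoCl2 and 4.69 and 3.98 in NT cells, and P4HB-220 had 1.01 and 0.221 in CoCl2 and 0.633 and 0.330 in NT cells. In SHISA5 the less covered transcript was higher, as in PLAUR, by 3.01-fold. ADRM1, RHBDD2, RAB34 and C7orf50 met the same coverage minimum, and of them RHBDD2 had the largest smallest difference, 1.78 on the log2 scale.

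Whether CoCl2 changed the editing of each transcript was tested with limma over all 6018 transcripts, with Benjamini-Hochberg adjustment. None of the 20 transcripts passed, and none of the 6018 did (0%, with 562 at an unadjusted p under 0.05, 3 of them among the 20). PLAUR-203 was 0.73 ± 0.27 higher in CoCl2 on the log2 scale (SE, adjusted p = 0.408 by limma), ADRM1-204 0.58 ± 0.22 higher (adjusted p = 0.408 by limma) and C7orf50-201 1.13 ± 0.44 higher (adjusted p = 0.408 by limma). For each of these 3 both CoCl2 values were above both NT values. The groups did not overlap for 10 of the 20 transcripts, against 39.9% of all. The median change was 0.36 over the 20 transcripts and 0.19 over all 6018. For PLAUR-202 the change was -0.03 with a 95% interval from -0.96 to 0.91.

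The isoform difference itself was tested for a shift with CoCl2 over the 701 pairs. None of the 10 genes passed, nor did any pair (0%, with 36 at an unadjusted p under 0.05, LRR1 alone among the 10). In LRR1 the A minus B difference was 1.82 ± 0.80 less negative in CoCl2 (SE, adjusted p = 0.911 by limma), with A minus B at -0.30 and -1.24 in CoCl2 and at -3.36 and -1.84 in NT cells. In PLAUR the shift was 0.75, with a 95% interval from -0.41 to 1.92. Groups did not overlap for 5 of the 10 genes, against 32% of all pairs.

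Coverage, a stand-in for the amount of each transcript, was scaled by the relative depth of each library and tested over the same 6018 transcripts. In bulk RNA fewer cells with a transcript and less of it per cell cannot be told apart. Of the 20 transcripts 12 were higher and 2 lower in CoCl2, against 24.8% higher and 18.2% lower over all (43% either way). The groups did not overlap for 17 of the 20, against 77.7% of all. Both ADRM1 transcripts rose, ADRM1-204 to 734 and 705 reads in CoCl2 against 346 and 397 in NT cells (log2 change 1.11 ± 0.19 SE, adjusted p = 0.00401 by limma), and ADRM1-205 to 217 and 162 against 89 and 106 (1.09 ± 0.24). C7orf50-204 had 197 and 186 reads in CoCl2 and 71 and 118 in NT cells, and C7orf50-201 had 192 and 163 in CoCl2 and 87 and 92 in NT cells. Both C7orf50 transcripts passed, by 1.21 ± 0.26 and 1.13 ± 0.23 on the log2 scale (adjusted p = 0.00442 and 0.00425 by limma).

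Both PLAUR transcripts passed as well, PLAUR-203 by 0.68 ± 0.21 and PLAUR-202 by 0.97 ± 0.32, as did both of RHBDD2 and of RAB34, LRR1-202 (1.12 ± 0.31) and GRK6-206. HDLBP was the 1 gene that fell, to 30 and 27 reads of HDLBP-204 in CoCl2 against 61 and 52 in NT cells (-0.81 ± 0.30, adjusted p = 0.0392 by limma). Transcript length moved with these changes. The median log2 change in 4 groups of equal size by length was 0.83 in the shortest (median 1226 bases), 0.25 and -0.42 in the next groups and -0.53 in the longest (median 4594 bases). With a trend on length taken out of each library, an alternative added after seeing the data, 4 of the 20 transcripts passed, both of ADRM1 (0.76 and 0.66 on the log2 scale) and both of C7orf50 (0.65 and 0.66), while 687 of 5943 transcripts were higher and 628 lower. The calls also needed both CoCl2 libraries: without CoCl2 replicate 1 none of the 6018 transcripts passed in either direction, and without CoCl2 replicate 2 there were 1 higher and 6 lower. Without NT replicate 2 there were 2181 higher and 1835 lower.

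**Figure D4:**
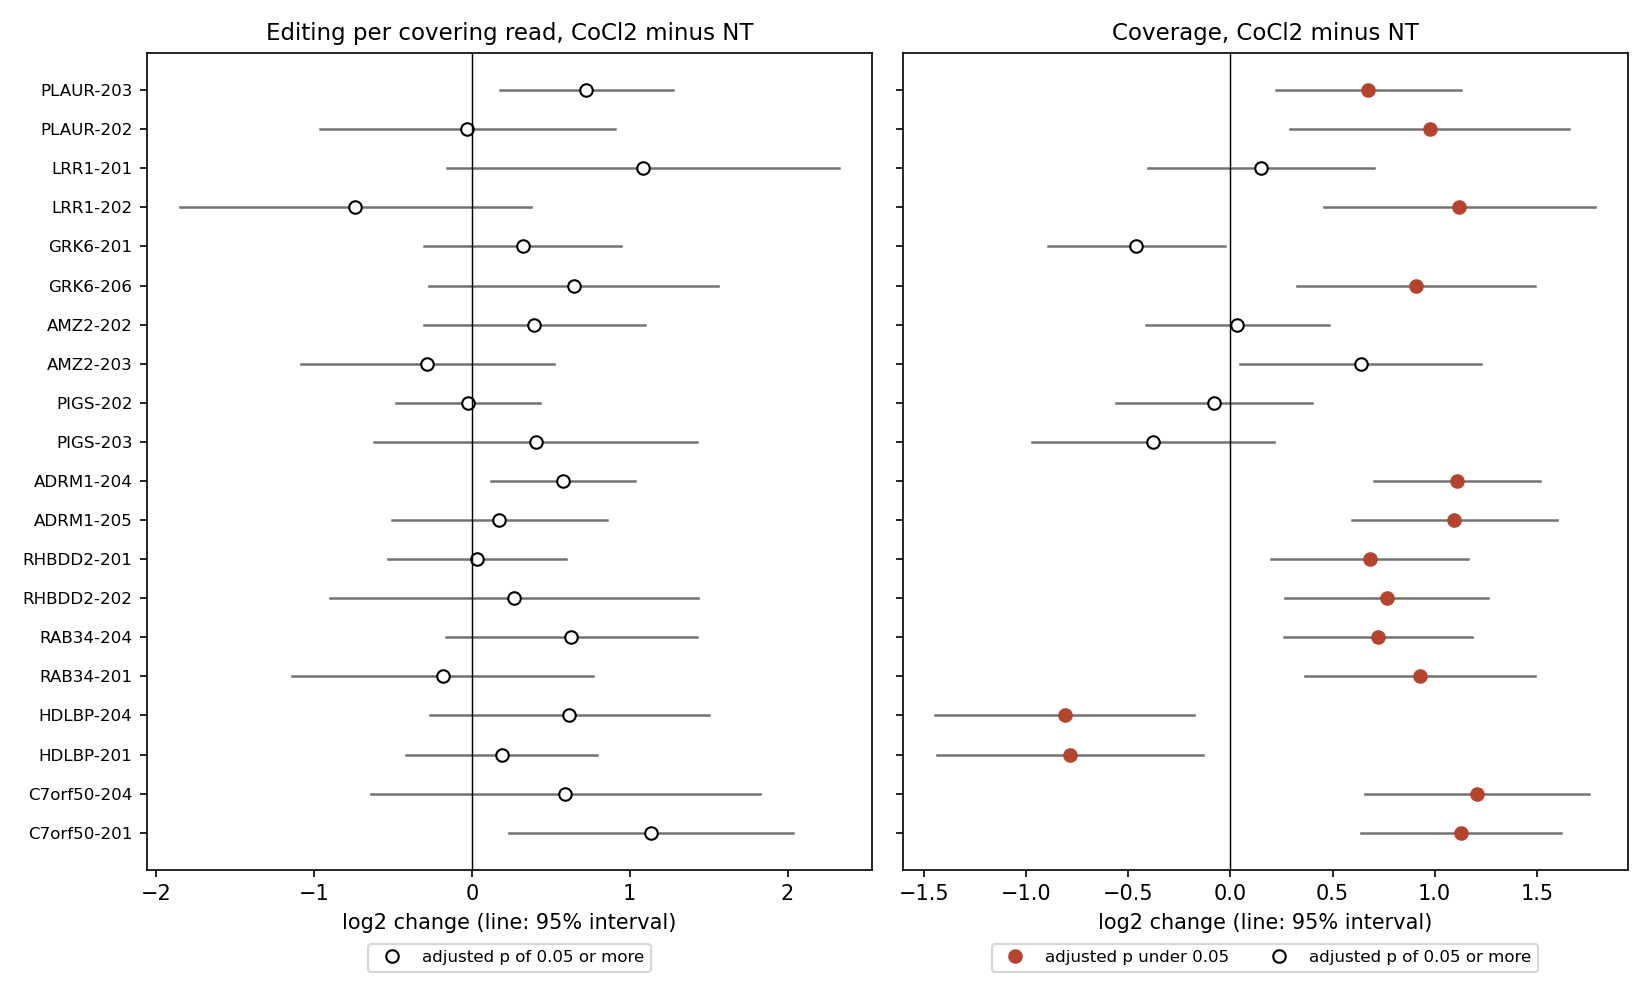
Change in editing per covering read (left) and in coverage (right), CoCl2 minus NT, on the log2 scale (horizontal axes) for the 20 transcripts (rows), with 95% intervals from limma. Filled points passed an adjusted p of 0.05. None is filled on the left, and 14 are on the right, 12 of them above 0.

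The share of each gene's coverage between A and B changed in GRK6. GRK6-201 had 207 and 217 reads in CoCl2 and 317 and 333 in NT cells, while GRK6-206 had 97 and 71 in CoCl2 and 50.5 and 47 in NT cells. The log2 ratio of A over B was 1.09 and 1.61 in CoCl2 and 2.65 and 2.82 in NT cells, with no overlap. The change was -1.38 ± 0.23 (SE, adjusted p = 0.000282 by limma over 701 pairs), a fall of the ratio to 0.383 of that in NT cells. GRK6 was the 1 gene of the 10 that passed, against 2.57% of pairs with a lower ratio, 2% with a higher one and 4.56% either way. GRK6-201 is 2939 bases long and GRK6-206 1660. Of the 108 pairs whose A is over 1.5 times longer, 11 passed with a lower ratio and 1 with a higher one. Without NT replicate 2 the calls over all pairs were 24 higher and 42 lower, without NT replicate 1 there were 9 higher and without CoCl2 replicate 1 there were 5 higher, and GRK6 passed in each case. With the trend on the length ratio taken out the GRK6 change was -1.22 ± 0.23 (adjusted p = 0.00525 by limma).

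In LRR1 the ratio changed by -1.002 ± 0.32 (adjusted p = 0.0675 by limma) and in AMZ2 by -0.61 ± 0.23 (adjusted p = 0.169 by limma), and neither passed. LRR1-201 had 91 and 97 reads in CoCl2 and 78.5 and 113 in NT cells, and LRR1-202 had 56 and 41 in CoCl2 and 23 and 25 in NT cells. Without NT replicate 1 the LRR1 change was -1.21 (adjusted p = 0.0286 by limma), past the threshold. The remaining genes changed by -0.33 to 0.31, and the groups did not overlap for 5 of the 10, against 41.9% of all pairs. For PLAUR the log2 ratio was 3.48 and 3.63 in CoCl2 and 3.88 and 3.89 in NT cells, with no overlap. The change of -0.33 did not pass (adjusted p = 0.614 by limma).

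**Figure D5:**
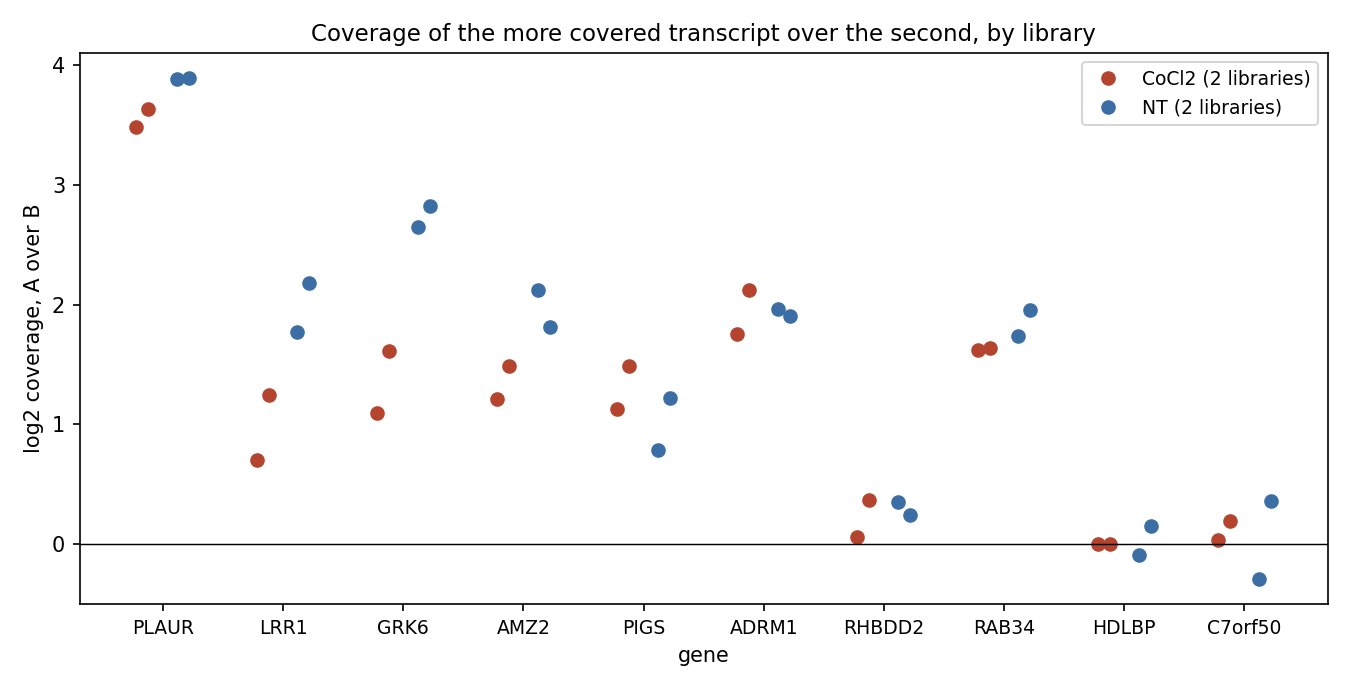
Coverage of A over B on the log2 scale (vertical axis) for each gene (horizontal axis), with 1 point per library, CoCl2 left of NT. In GRK6 the CoCl2 libraries sit at 1.09 and 1.61 and the NT libraries at 2.65 and 2.82. In PLAUR the CoCl2 libraries sit at 3.48 and 3.63 and the NT libraries at 3.88 and 3.89.

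HEK293T Ribo-STAMP libraries gave the same measure in samples that the choice of genes did not use, at lower depth and with A and B as in MDA-MB-231. Only PIGS and HDLBP reached the minimum of 10 reads on both transcripts in all 3 libraries, and 47 pairs did in all. No pair passed limma with Benjamini-Hochberg adjustment (0%, with 6 at an unadjusted p under 0.05). PIGS-202 had 26.9, 23.8 and 24.2 edited reads per 100 and PIGS-203 had 21.1, 14.3 and 10.7, so that A was higher in 3 of 3 libraries, by 0.69 ± 0.42 on the log2 scale (SE, adjusted p = 0.559 by limma, 95% interval from -0.25 to 1.62). HDLBP-204 had 82.8, 33.3 and 60.0 and HDLBP-201 had 60.6, 97.2 and 86.7, B being higher in 2 of 3 (-0.47 ± 0.40, adjusted p = 0.585 by limma, 95% interval from -1.37 to 0.42). HDLBP-203, above HDLBP-204 in every MDA-MB-231 library, had 32.1, 42.3 and 46.4 in HEK293T, below HDLBP-204 in replicates 1 and 3 and above it in replicate 2.

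At lower coverage AMZ2-202 had 20.0, 12.2 and 21.5 edited reads per 100 in HEK293T Ribo-STAMP, and AMZ2-203 had 75.0, 8.33 and 32.3, on 4, 12 and 31 reads. PLAUR, LRR1, ADRM1 and RAB34 had no entry for either transcript in the HEK293T libraries, and for GRK6, RHBDD2 and C7orf50 the 2 transcripts were not both listed in all 3 Ribo-STAMP libraries. In APOBEC1-only cells the 10 genes had 11, 9 and 13 edited reads per library, against 132, 106 and 135 in Ribo-STAMP cells. Over all genes these libraries held 3498, 3173 and 2971 edited reads, against 65792, 50908 and 59227. HDLBP-201 had 8.77, 5.68 and 6.25 edited reads per 100 in APOBEC1-only cells, and PIGS-202 had 3.57 and 6.90 in the 2 libraries that listed it. Editing by the deaminase without its ribosomal partner was not measured in MDA-MB-231 cells, so an isoform difference in background editing was not tested there.

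Genes that act with PLAUR, PIGS, LRR1 and ADRM1 were followed as 4 lists, to be read against the 24.8% of all transcripts that were higher in coverage and the 18.2% that were lower (with the length trend out, 687 and 628 of 5943). In the urokinase and plasminogen system 8 of 13 genes were tested, with 11 transcripts. None passed the test for a change in editing. In coverage the 2 PLAUR transcripts were the only ones higher and 5 were lower, with a median log2 change of -0.02 against 0.04 over all transcripts. PLAU, the protease that the urokinase receptor binds, fell to 835 and 772 reads in CoCl2 against 1878 and 1561 in NT cells (-0.94 ± 0.19, adjusted p = 0.00425 by limma). SERPINB2, SERPINE2, ITGB1 and ITGA3 were the others, and with the length trend out PLAU, SERPINB2 and SERPINE2 were lower and neither PLAUR transcript passed.

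Of the GPI transamidase all 5 genes were tested, with 8 transcripts. PIGT-201 (0.77 ± 0.24) and GPAA1-201 (0.62 ± 0.19) were higher in coverage, 2 of 8 and so close to the 24.8% over all transcripts, no transcript was lower, the median was 0.39, and with the length trend out GPAA1-201 alone passed. Of the cullin-2 ligase 5 of 6 genes were tested, with 7 transcripts, of which 3 were higher (LRR1-202, ELOB-203 and RBX1-201) and CUL2-204 lower, against 24.8% and 18.2% over all. The median was 0.78, and none passed with the length trend out. Of the proteasome regulatory particle 10 of 11 genes were tested, with 13 transcripts. Both ADRM1 transcripts were among 8 that were higher, and PSMD1-201 and UCHL5-206 were lower, against 24.8% and 18.2% over all, with a median of 0.83 against 0.04. With the length trend out 7 of the 13 were higher and 1 lower, against 687 and 628 of 5943 over all. No transcript of these 3 lists passed the test for a change in editing, and the medians were 0.27, 0.52 and 0.41 in the order given, against 0.19 over all.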

How the data were processed

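Long-read Ribo-STAMP edits were listed per transcript and position. The authors deposited, for each library, the edited position, its transcript, the number of edited reads and the count of covering reads, and no normalized values. Genome builds hg19 and hg38 are named in the submitters' processing notes, and no source used here gives the aligner or the edit caller. Some entries of the 4 MDA-MB-231 files lay on transcripts absent from GENCODE 29. Of the others 99.8 to 99.9% were inside the coding sequence of their own transcript, so these files fit GRCh38 and that release. The HEK293T files did not, so no HEK293T coordinate was used, and no test was made between the lines.

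For each transcript and library, edited reads were summed and set over the median coverage of the listed positions. Tests used limma 3.58.1 in R 4.3.3 with an intensity trend, two-sided, Benjamini-Hochberg adjustment over all features and a threshold of 0.05. They ran on log2((edited reads + 0.5)/coverage) and on log2(coverage/relative depth + 1), for features with a coverage of at least 10 in every library. The added 0.5 raises the level of a transcript with few reads, so that printed folds differ from ratios of the printed levels, and the added 1 understates coverage changes of low transcripts. The steps were tested on simulated data. Tables were made with Python 3.11.15, pandas 2.3.3 and numpy 2.4.6, and figures with matplotlib 3.10.9.

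Transcript coverage summed to 1120240 to 1204720 reads per MDA-MB-231 library, and 79.5 to 82.4% of entries had 1 edited read. Intervals cover the spread between libraries, and reads carry no molecular identifiers in the sources used here. The deviations of same-numbered CoCl2 and NT libraries did not correlate, so replicate numbers were not used as pairs.

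Named were the 10 genes with both chosen transcripts, the next transcript by coverage, list members that passed a test, and the 5 most alike other genes. Edited positions named are among the 3 with the most edited reads of their transcript. The lists were the urokinase and plasminogen system (PLAU, PLAUR, PLAT, SERPINE2, SERPINB2, LRP1, MRC2, ITGB1, ITGAV, ITGA3, ITGB3, VTN), the GPI transamidase (PIGS, PIGK, PIGT, PIGU, GPAA1), the cullin-2 ligase (LRR1, CUL2, ELOB, ELOC, RBX1, VHL) and the proteasome regulatory particle with ADRM1 (ADRM1, UCHL5, PSMD1, PSMD2, PSMD4, PSMC1, PSMC2, PSMC3, PSMC4, PSMC5, PSMC6). Some list members and markers are counted but not reported by name here. The genes and lists were chosen with earlier results of these data known.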

Additional observations from a re-analysis of the deposited data

Results flagged for a closer look

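The coverage ratio of GRK6-201 over GRK6-206 differed between CoCl2 and NT cells. It changed by -1.38 on the log2 scale in limma, with values of 1.09 and 1.61 in CoCl2 and 2.65 and 2.82 in NT cells. Coverage also moved with transcript length, and its part in the result beyond the length trend given above was not tested.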

How the results depend on the processing

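Of the values of single genes and transcripts recomputed under each alternative, 616 kept their direction and call, 42 lost their call, all in coverage, 30 changed direction and 5 gained a call. The other 4 are untested isoform differences that moved by more than their SD over libraries (LRR1, GRK6 and, under 2 alternatives, RHBDD2). Counts of calls are given below. The length trend and the restriction to pairs differing by under 2-fold in coverage were added after seeing the data. The alternative of shared coding positions in HEK293T was not run, because those files could not be placed on the annotation. The cause of each change below was not tested.

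Coverage calls were 1490 higher and 1097 lower. They ranged from 0 to 2181 higher and from 0 to 1835 lower as each library was left out, were 550 lower at a coverage of at least 50, and were 687 higher and 628 lower with the length trend out. Coverage ratio calls were 14 higher and 18 lower. They ranged from 5 to 24 higher and from 13 to 42 lower with a library left out, and were 4 and 4 at a coverage of at least 1 and 8 and 6 at a coverage of at least 50. The 16 pairs past 2-fold became 21 to 32 with a library left out, 4 at a coverage of at least 50, 4 where coverage differed by under 2-fold and 47 past 1.5-fold. One of 7313 transcripts was higher in editing at a coverage of at least 1. In HEK293T the 0 higher pairs became 0 to 1 with a library left out, 1 at a coverage of at least 1 and 2 with a pseudocount of 1, and the 0 lower pairs became 2, 1 and, by edited positions, 2.

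With the replicate block, used although the numbers did not pair (correlations of deviations -0.0153 for editing and 0.0041 for coverage), coverage calls were 1431 higher and 1124 lower, ratio calls 18 higher and 26 lower and editing calls 0, and the LRR1 coverage ratio passed (-1.002, adjusted p = 0.0305 by limma).

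Results that changed direction were uncalled. With a library left out, editing changes ran from -0.083 to 0.027 (PLAUR-202), -0.58 to 0.012 (AMZ2-203), -0.20 to 0.15 (PIGS-202, with 0.068 between), -0.031 to 0.84 (PIGS-203), -0.11 to 0.46 (ADRM1-205), -0.16 to 0.22 (RHBDD2-201, with -0.0094 between), -0.014 to 0.55 (RHBDD2-202) and -0.63 to 0.26 (RAB34-201, with 0.14 between). The isoform ratio of editing ran from -0.96 to 0.10 (PIGS) and -0.16 to 1.02 (HDLBP), coverage from -0.12 to 0.42 (LRR1-201) and -0.052 to 0.12 (AMZ2-202, with -0.029 between), and the coverage ratio from -0.17 to 0.19 (ADRM1, with -0.019 between), -0.24 to 0.069 (RHBDD2), -0.15 to 0.092 (HDLBP) and -0.25 to 0.41 (C7orf50). By edited positions they were 0.16 (PIGS-202) and -0.16 (ADRM1 ratio), over positions in at most 2 libraries 0.24 (PIGS-202), 0.17 (PIGS ratio) and -0.0043 (HDLBP ratio), and over shared coding positions 0.12 (RHBDD2 ratio). With the length trend out they were -0.11 (LRR1-201), 0.026 (PIGS-202) and 0.0023 (HDLBP coverage ratio).

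Depth limits the editing of low transcripts such as PLAUR-202, both of LRR1 and RHBDD2-202, with 2 to 17 edited reads a library.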
